A study of Mus musculus with 8 samples.

Results

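The 10 genes described here, Ly86, Cx3cr1, Csf1r, Adgre1, Ctss, Fcgr3, Tyrobp, Cd68, Spi1 and Ptprc, are commonly read as markers of macrophages and were measured in mouse yolk sac at embryonic day 9.5. They were chosen by symbol, with large rises of Ly86 and Cx3cr1 in one of the models already known from earlier results of these data. Each was represented by the probe set that maps to that gene alone and has the highest mean signal over the arrays. All 10 were found among the 18194 genes with such a probe set. All 10 were also among the 10913 genes bright enough to be tested, so none was lost to the filter on low signals. That filter uses the mean over all 8 arrays. Ly86, Cx3cr1, Ctss, Tyrobp and Ptprc lay below its limit of 68 on every wild type array and passed it through their mutant arrays. Adgre1 lay below the limit on every wild type array except the array with a signal of 85, and also passed through its mutant arrays. A filter of this kind favours rises among dim genes, also in the calls and medians below.

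The study compared yolk sacs in which Notch signaling was raised or removed in the endothelium, each with its own wild type, on 8 single-channel Affymetrix mouse arrays in 4 groups of 2. In EC-N1ICD yolk sacs (Tie2 Tg/0, ROSA +/N1ICD, strain C57BL6) the intracellular domain of NOTCH1 is switched on by Cre, and their wild types carried neither allele (Tie2 0/0, ROSA +/+). EC-Rbpj-KO yolk sacs (Tie2-Cre, Rbpj flox/flox, mixed strain) lose RBPJ, the DNA-binding partner of all Notch receptors. Their wild types came from a cross of Tie2 Tg/0, Rbpj +/flox males with Rbpj +/flox females, and the labels give no genotype for them, so a floxed allele or the Cre transgene in these controls is not known. The Tie2 promoter drives Cre in endothelial cells and also in blood lineages, so the allele can be recombined in the leukocytes that the 10 genes mark as well as in vessels. The sets differ in strain and control cross, and in the last number of the sample titles, which reads as a date and is shared within a set. The wild type groups were therefore not tested against each other.

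Yolk sac macrophages are among the first leukocytes of the embryo. They arise in the yolk sac from early progenitors, many of which derive from hemogenic endothelium, require the transcription factor PU.1 (Spi1) and the receptor CSF1R, and some seed the brain, where their descendants are microglia. Whole yolk sac is largely visceral endoderm, primitive red cells, vessels and mesoderm, so in bulk RNA more cells of a type and more RNA of its genes per cell cannot be told apart. Signals below are the linear intensities on the arrays, in arbitrary units. Signals of different probe sets cannot be set against each other, and changes are log2 differences between a mutant and the wild type of its own set.

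Several facts of the arrays touch what follows. Rbpj itself gave signals of 470 and 497 on EC-Rbpj-KO arrays against 984 and 919 in its wild type, although whether its probe set lies in the deleted exons is not given. Xist, which is transcribed from the inactive X chromosome, gave signals of 3600 and 3730 in EC-N1ICD and 96 and 96 in its wild type, and signals of 2005 and 84 in the EC-Rbpj-KO yolk sacs and 90 and 77 in its wild type. The sex of the embryos therefore moved fully with genotype in the EC-N1ICD set, and EC-Rbpj-KO replicate 1 alone had a high Xist signal in the other set. The ratio of 3′ to 5′ signals of Gapdh, a measure of RNA integrity, was 2.43 to 2.48 in EC-N1ICD against 2.76 to 3.12 in its wild type, and 3.45 to 4.64 in EC-Rbpj-KO against 3.17 to 3.51 in its wild type. That of Actin was 1.72 to 1.75 against 2.1 to 2.34 in the EC-N1ICD set and 2.09 to 2.29 against 1.84 to 1.9 in the EC-Rbpj-KO set, without overlap in either. The part of RNA quality in the changes was not tested. In the EC-Rbpj-KO set a fit with sex gives the same changes as leaving out replicate 1, which is given below for each gene whose call it ended. The calls of these fits can differ, as for Vcan below. Nothing in the labels says whether the arrays of a group came from separate embryos, and a first number in the titles, whose meaning is not stated, sets replicate 1 of each mutant apart from the other 3 arrays of its set. The p-values here reflect the spread among arrays, which may be technical.

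In EC-Rbpj-KO yolk sacs 8 of the 10 genes had higher signals on both mutant arrays than on both wild type arrays, and Fcgr3 and Cd68 had lower signals on both. Of all genes tested, 50.8% did not overlap between these groups, 23.3% with the mutant higher and 27.5% with it lower. Ly86 and Cx3cr1 are given as a description with no test, because their rises in this comparison were known when they were chosen. Of the other 8, Csf1r, Adgre1, Ctss and Tyrobp rose, Fcgr3 and Cd68 fell, and Spi1 and Ptprc did not pass the test (limma on log2 signals, adjusted over all genes, threshold 0.05), beside 4.96% of all genes called. Of all genes, 2% were called higher and 2.96% lower. The choice of the genes leaves nothing to be read from these counts. The median change of the 10 genes was 1.35 on the log2 scale, or 1.13 without Ly86 and Cx3cr1, and that of all genes tested was -0.02. The choice of the genes and the filter bear on these medians too, so nothing is read from them.

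**Figure D1:**
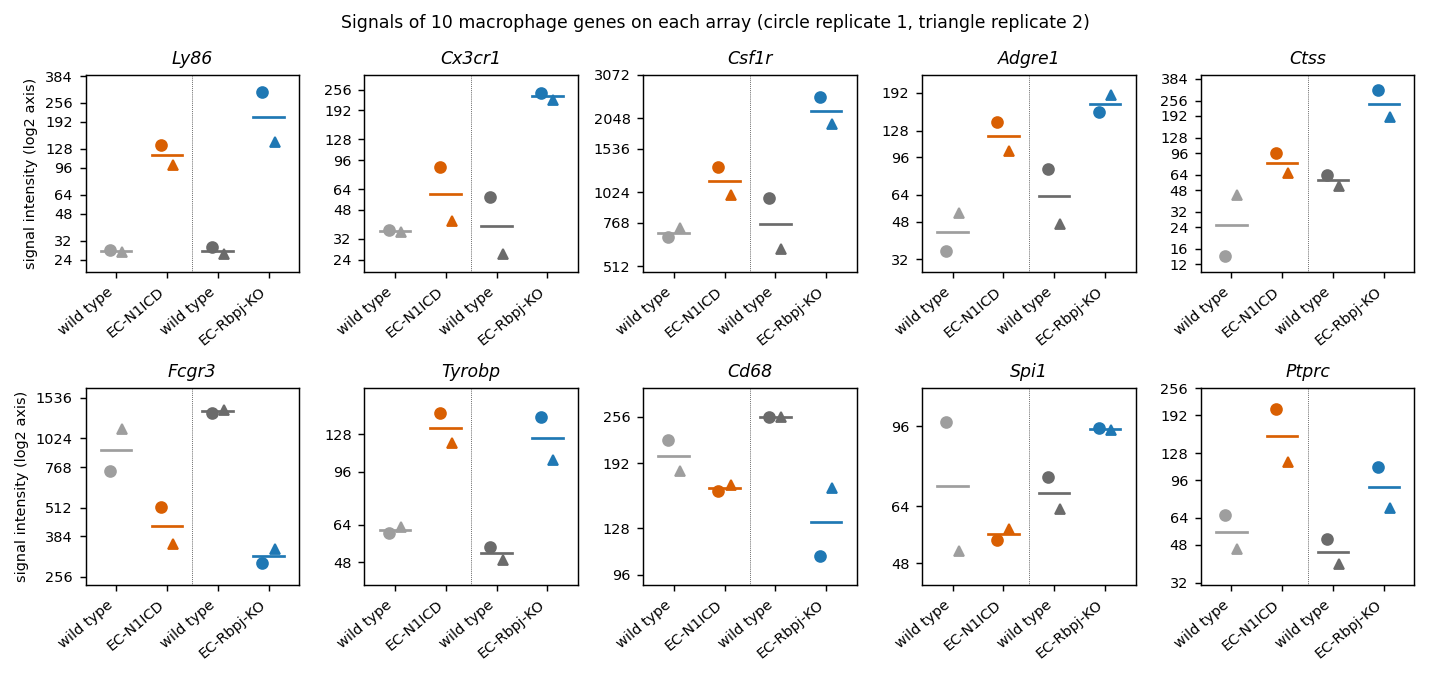
Signal of each of the 10 macrophage genes on each array (vertical log2 axis, arbitrary units), with the EC-N1ICD set left of the dotted line and the EC-Rbpj-KO set right of it. Circles are replicate 1, triangles replicate 2 and bars the group mean of log2 signals. In EC-Rbpj-KO both arrays lie above both wild type arrays for 8 genes and below them for Fcgr3 and Cd68, and in EC-N1ICD only Spi1 overlaps.

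Among the surface receptors, Csf1r, the receptor for the growth factors CSF1 and IL-34 on which most macrophages depend, gave signals of 2497 and 1935 in the EC-Rbpj-KO yolk sacs and 965 and 599 in its wild type. The lower mutant array was above the higher wild type array by more than the wild type arrays differed from each other. Csf1r rose 2.89-fold, a log2 change of 1.53 (SE 0.23, n = 2 per group, limma adjusted p = 0.00391). In EC-N1ICD its signals were 1293 and 995 against 671 and 730, again without overlap, and the change of 0.70 on the log2 scale did not pass the test (limma adjusted p = 0.228). The remaining probe sets of Csf1r were higher by 2.43-fold and 2.28-fold in EC-Rbpj-KO, whereas in EC-N1ICD they had ratios of 1.46 and 0.766, the latter in the opposite direction. The rise in EC-Rbpj-KO passed with each of the 8 arrays left out in turn, with log2 values of 1.19 to 1.88.

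Cx3cr1, the receptor for fractalkine that marks yolk sac macrophages and microglia, gave signals of 246 and 221 in the EC-Rbpj-KO yolk sacs and 57 and 26 in its wild type. Both mutant arrays were high and close to each other, and the spread lay in the wild type. The log2 difference of 2.60 (6.06-fold) is a description. In EC-N1ICD the signals were 87 and 41 against 36 and 35. A single EC-N1ICD array carried most of that difference of 0.75 on the log2 scale (SE 0.43, limma adjusted p = 0.549), and the other array was close to the wild type. A further probe set of Cx3cr1 gave signals of 12 to 22 on all 8 arrays, below the median of every array, and showed a ratio of 0.938 in EC-Rbpj-KO and 1.17 in EC-N1ICD. The large difference thus rests on 1 of the 2 probe sets.

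Adgre1, which encodes F4/80, the classical surface antigen of mouse macrophages, gave signals of 156 and 187 in the EC-Rbpj-KO yolk sacs and 85 and 47 in its wild type. It rose 2.70-fold, a log2 change of 1.43 (SE 0.34, limma adjusted p = 0.0365). In EC-N1ICD it gave signals of 141 and 103 against 35 and 53, a log2 change of 1.48 that did not pass (limma adjusted p = 0.0897). The fitted sizes in the models were close, with a difference of -0.05 on the log2 scale and a 95% interval of -1.11 to 1.01. In EC-Rbpj-KO the call ended with no filter on low signals (limma adjusted p = 0.0574) and without the mean-variance trend (adjusted p = 0.0523). It also ended with the arrays of the set alone (adjusted p = 0.0664) and with quantile normalization (1.29, adjusted p = 0.0540). The call in EC-Rbpj-KO ended without EC-Rbpj-KO replicate 1 (1.56, limma adjusted p = 0.0605) or 2 (1.30, adjusted p = 0.135), without wild type replicate 2 of that set (1.01, adjusted p = 0.280) and without either EC-N1ICD array, which leaves the value of 1.43 and widens its error (adjusted p = 0.0529 and 0.0506).

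Fcgr3, a low-affinity Fc receptor for IgG on macrophages, neutrophils, mast cells and other leukocytes, went the other way. Its signals were 293 and 338 in EC-Rbpj-KO and 1322 and 1366 in its wild type, and both groups were tight. It fell 4.27-fold, a log2 change of -2.09 (SE 0.23, limma adjusted p = 0.000872), and passed with each of the 8 arrays left out in turn (-2.20 to -1.99). In EC-N1ICD the signals were 514 and 355 against 741 and 1121. The log2 change of -1.09 was in the same direction and did not pass (limma adjusted p = 0.0575), although it passed without EC-Rbpj-KO replicate 1 (adjusted p = 0.0488) or 2 (adjusted p = 0.0484), which leave its value as it is. Fcgr3 was the sole gene of the 10 with a log2 change below -1 in both models. The related inhibitory receptor gene Fcgr2b gave signals of 192 and 242 on EC-Rbpj-KO arrays against 172 and 194, and of 187 and 221 in EC-N1ICD against 239 and 248. Neither difference passed (log2 values of 0.24 and -0.26, limma adjusted p = 0.557 and 0.703). Whether the probes of Fcgr3 also bind transcripts of its close paralogs was not tested.

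Ptprc encodes CD45, the phosphatase carried by nearly all nucleated blood cells. Its signals were 111 and 71 in EC-Rbpj-KO and 51 and 39 in its wild type, and 206 and 116 in EC-N1ICD and 66 and 46 in its wild type. Both mutant groups were above their wild type without overlap, and neither log2 change passed (0.99 with limma adjusted p = 0.151, and 1.49 with adjusted p = 0.107). Ptprc and Adgre1 had fitted changes larger in size in EC-N1ICD than in EC-Rbpj-KO, and neither difference between the models passed the test. A further probe set of Ptprc gave signals of 11 to 16 on all arrays.

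Ly86 encodes MD-1, the soluble partner that the Toll-like receptor homolog CD180 (RP105) needs to reach the cell surface. Its signals were 302 and 142 in EC-Rbpj-KO and 29 and 26 in its wild type. Both wild type values lay below the median of their arrays, so the fold depends on a dim wild type level. The log2 difference was 2.92 (7.54-fold), with EC-Rbpj-KO replicate 1 at 3.46 and replicate 2 at 2.37 above the wild type mean. In EC-N1ICD the signals were 136 and 101 against 28 and 27, and the gene was chosen with results of these data known.

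Ly86 rose in EC-N1ICD, 4.26-fold or 2.09 on the log2 scale (SE 0.37, limma adjusted p = 0.0290), and was the sole one of the 10 genes called in that model, beside 0.596% of all genes (0.376% higher and 0.22% lower). Its mutant arrays alone made it bright enough to test. The call ended without either EC-N1ICD array (1.88 without replicate 1, limma adjusted p = 0.320, and 2.31 without replicate 2, adjusted p = 0.0657) and without either wild type array of that set (2.12 with adjusted p = 0.139 and 2.07 with adjusted p = 0.153). With embryo sex as a covariate, estimated from the EC-Rbpj-KO arrays where it varied, the change was 1.0 on the log2 scale (adjusted p = 0.432). Sex and genotype cannot be told apart within the EC-N1ICD set. Cd180, the receptor that binds the product of Ly86, gave signals of 15 to 31 over the 8 arrays, all below the array median.

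Tyrobp encodes DAP12, the adaptor through which TREM2 and related receptors signal. It gave signals of 146 and 105 in the EC-Rbpj-KO yolk sacs and 54 and 49 in its wild type, and of 150 and 120 in EC-N1ICD and 60 and 63 in its wild type. In both sets the mutants lay above 100 and the wild types below 64. Tyrobp rose in EC-Rbpj-KO, 2.41-fold or 1.27 on the log2 scale (SE 0.27, limma adjusted p = 0.0231), and its change of 1.13 in EC-N1ICD did not pass (adjusted p = 0.105). Tyrobp was bright enough to test only through its mutant arrays, and with no filter on low signals adjusted p in EC-Rbpj-KO was 0.0395 (limma). The difference between the models was 0.14 with a 95% interval of -0.70 to 0.99. The rise in EC-Rbpj-KO lost its call with the arrays of its set alone (limma adjusted p = 0.0702). The call in EC-Rbpj-KO ended without EC-Rbpj-KO replicate 1 (1.03, limma adjusted p = 0.0876) and without wild type replicate 1 (1.34, adjusted p = 0.0878) or 2 (1.20, adjusted p = 0.157) of its set.

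Ctss and Cd68 are the genes of lysosomal proteins among the 10, and they moved in opposite directions. Ctss encodes cathepsin S, a protease of phagocytes, and gave signals of 310 and 189 in the EC-Rbpj-KO yolk sacs and 64 and 52 in its wild type. It rose 4.20-fold, a log2 change of 2.07 (SE 0.48, limma adjusted p = 0.0306). Ctss was bright enough to test only through its mutant arrays, and with no filter on low signals adjusted p was 0.0418 (limma). In EC-N1ICD it gave signals of 96 and 66 against 14 and 44, a wide spread in the wild type, and the change of 1.68 did not pass (adjusted p = 0.166). The rise in EC-Rbpj-KO lost its call without the mean-variance trend (limma adjusted p = 0.0660). The call in EC-Rbpj-KO ended without EC-Rbpj-KO replicate 1 (1.71, limma adjusted p = 0.114) and without wild type replicate 1 (2.22, adjusted p = 0.0920) or 2 (1.92, adjusted p = 0.175) of its set.

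Cd68 encodes macrosialin, a glycoprotein of late endosomes and lysosomes that cells other than macrophages also make. Its signals were 108 and 164 in EC-Rbpj-KO and 255 and 255 in its wild type, and it fell 1.92-fold, a log2 change of -0.94 (SE 0.23, limma adjusted p = 0.0421). In EC-N1ICD it gave signals of 161 and 167 against 221 and 183, a log2 change of -0.29 (adjusted p = 0.709). In EC-Rbpj-KO the call ended with no filter on low signals (limma adjusted p = 0.0844) and without the mean-variance trend (adjusted p = 0.0540). It also ended with the arrays of the set alone (adjusted p = 0.0971). With 1 array left out, the call in EC-Rbpj-KO remained only without EC-Rbpj-KO replicate 2 (-1.24, limma adjusted p = 0.0169). Without EC-Rbpj-KO replicate 1 it was -0.64 (adjusted p = 0.140), without either wild type array of that set it was -0.94 (adjusted p = 0.168 and 0.213), and without an array of the EC-N1ICD set adjusted p was 0.0515 to 0.0690.

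Spi1 encodes PU.1, the transcription factor that specifies the myeloid lineage. Its signals were 95 and 94 in EC-Rbpj-KO and 74 and 63 in its wild type, and 54 and 57 in EC-N1ICD and 98 and 51 in its wild type. The EC-N1ICD arrays lay inside the range of their wild type, and Spi1 was the sole gene of the 10 that overlapped in that model. Neither log2 change passed (0.47 with limma adjusted p = 0.464, and -0.35 with adjusted p = 0.773). Spi1 was also the sole one whose fitted change had opposite signs in the models.

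**Figure D2:**
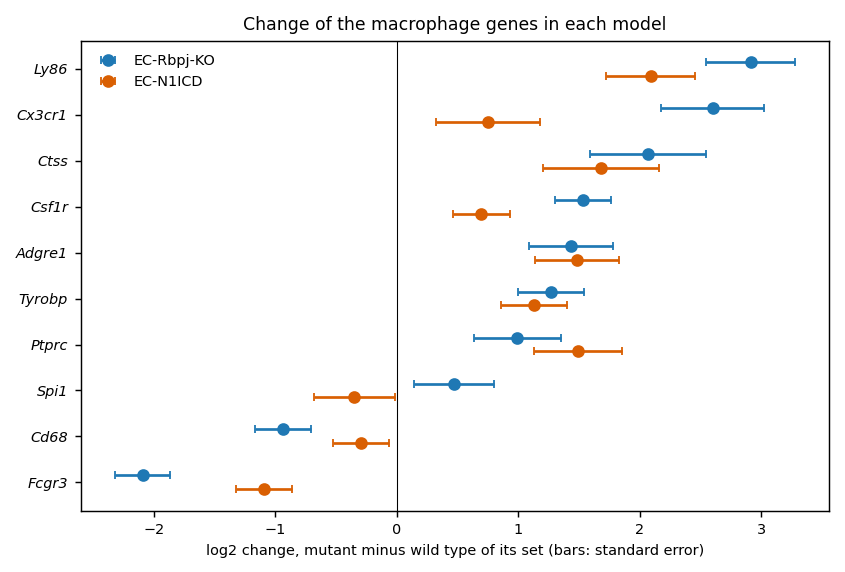
Log2 change of the 10 macrophage genes, mutant minus the wild type of its own set, in EC-Rbpj-KO (blue) and EC-N1ICD (orange), with standard errors from the limma fit over all 8 arrays (2 per group). The genes run from Ly86 (2.92 and 2.09) down to Fcgr3 (-2.09 and -1.09), and 9 of the 10 have the same sign in both models.

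In EC-N1ICD yolk sacs 7 of the 10 genes were higher on both mutant arrays than on both wild type arrays and 2 were lower, beside 42.6% of all genes tested without overlap, 23.7% higher and 18.9% lower. Ly86 alone of the 10 passed the limma test after adjustment, beside 0.596% of all genes called. The median log2 change of the 10 was 0.94, against 0.01 for all genes tested. This median also depends on the choice of the genes and on the filter. Relative to the wild type mean of the set, the 10 genes had a median of 1.29 in the first EC-N1ICD replicate and 0.74 in the other. The EC-Rbpj-KO replicates had medians of 1.41 and 1.19. Of the 10 genes, 7 were above 0 on either EC-N1ICD array and 8 on either EC-Rbpj-KO array, and 8 were also above 0 on wild type replicate 1 of the EC-Rbpj-KO set, where the median was 0.13. The models share no arrays, but they differ in strain, controls and the last number of the titles.

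Whether a gene changed differently in the models was tested by the difference of its changes, EC-Rbpj-KO minus EC-N1ICD. None of the 8 genes tested passed after adjustment (limma, 0.266% of all genes called, 0.055% with a positive and 0.211% with a negative difference), also without the mean-variance trend in the fit. Csf1r had a difference of 0.84 on the log2 scale (95% interval 0.12 to 1.55, limma adjusted p = 0.381), and Fcgr3 had -1.0 (-1.71 to -0.29, adjusted p = 0.296). Such intervals are not adjusted over genes, and the share of all genes whose interval leaves out 0 was not counted. The fitted difference of Cx3cr1 was 1.85 (0.53 to 3.17) and that of Ly86 0.82 (-0.31 to 1.96), both as a description. The intervals of Ctss (-1.09 to 1.86), Ptprc (-1.62 to 0.63) and Spi1 (-0.21 to 1.85) are wide and include 0, so these arrays leave room for a larger change in either model.

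The promoters of the genes were read for the core of the motif bound by PU.1, GAGGAA on either strand, since most of the 10 genes moved in the same direction. Windows from 250 bases before to 50 bases after a transcript start (RefSeq, mouse build GRCm38.p6) were at hand for 6 of the genes, in 8 windows. The core was present in 5 of the 8 windows, which belong to 4 genes, Ptprc, Fcgr3, Ctss and Cd68, and in 28.3% of all 32851 promoters in the table. One site of each is shown, 5′ to 3′ on the strand of the gene with the match in capitals, and GAGGAA appears as TTCCTC where it lies on the opposite strand.
Ptprc (chr1:138175446-138175475, minus strand, first base of the match at -158 from the start): tgttttcctttaGAGGAAaattgagacgaa
Fcgr3 (chr1:171059392-171059421, minus strand, -6): gagtccatttccTTCCTCtttttgtagttc
Ctss (chr3:95526610-95526639, plus strand, -164): gacacagggttgGAGGAAaactttgtcctg
Cd68 (chr11:69666378-69666407, minus strand, -225): tttcttaccaatGAGGAAagggcttcccat
All 4 sites shown lie before a transcript start, which for Ptprc and Fcgr3 is one inside the annotated gene. Further matches, not shown, begin at 0 from the start in Ctss and at 29 after it in Cd68. The genes that hold the core include both that fell in EC-Rbpj-KO, Fcgr3 and Cd68, and one that rose there, Ctss. The windows of Ly86 and Cx3cr1 do not hold it. The core bound by RBPJ, GTGGGAA on either strand, was in none of the 8 windows and in 6.38% of all promoters. A match is a description of the letters, and its absence says nothing about binding elsewhere.

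Other genes of macrophages were taken from lists of 90 genes that work with the 10 or mark the same cells, of which 85 had a probe set of their own and 53 were bright enough to be tested. In EC-Rbpj-KO 1 of the 53 rose and 3 fell (limma adjusted over all genes), or 7.55% against 4.96% of all genes. Their median change was 0.14 on the log2 scale, with 32 above 0, and 17 were higher and 11 lower without overlap, beside 23.3% and 27.5% of all genes. In EC-N1ICD none rose and 1 fell, or 1.89% against 0.596% of all genes, with a median of -0.07, 20 above 0, and 13 higher and 15 lower without overlap, beside 23.7% and 18.9% of all genes. The median of the 10 genes without Ly86 and Cx3cr1 was 1.13 in EC-Rbpj-KO. These 8 were also chosen with earlier results known, and Fcgr3 and Cd68 among them fell.

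Of the ligands, Csf1, which feeds the receptor encoded by Csf1r, gave signals of 148 and 155 in the EC-Rbpj-KO yolk sacs and 172 and 136 in its wild type, and of 159 and 176 in EC-N1ICD and 180 and 158 in its wild type. Its fitted changes were -0.01 in both models. Il34, the other ligand of that receptor, was below the array median on all arrays. Cx3cl1, which encodes fractalkine, gave signals of 42 and 62 in the EC-Rbpj-KO yolk sacs and 115 and 95 in its wild type. It lay lower without overlap, in the direction opposite to its receptor gene Cx3cr1, and did not pass (log2 change -1.03, limma adjusted p = 0.107).

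Of the 10 tested genes that partner or signal with these receptors, Sirpa fell in EC-Rbpj-KO. It encodes the inhibitory receptor that binds CD47, and gave signals of 96 and 104 against 289 and 238 (log2 change -1.39, SE 0.26, limma adjusted p = 0.0112). The call ended without wild type replicate 1 (-1.25, limma adjusted p = 0.0958) or 2 (-1.53, adjusted p = 0.0537) of that set, and with the mean of all its probe sets (-0.65, adjusted p = 0.120). In EC-N1ICD it gave signals of 96 and 86 against 128 and 84, which overlap. The inhibitory phosphatase genes Inpp5d (SHIP1) and Ptpn6 (SHP-1) were higher without overlap in EC-Rbpj-KO, by 1.02 and 0.52 on the log2 scale, and did not pass (limma adjusted p = 0.0645 and 0.0842). Fcer1g, the signalling chain shared by Fc receptors, gave signals of 103 and 119 against 105 and 48 in EC-Rbpj-KO and did not pass (adjusted p = 0.381). The median of the list was 0.50 in EC-Rbpj-KO and -0.22 in EC-N1ICD.

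Of the 11 transcription factors, Cebpb fell in EC-Rbpj-KO. It encodes C/EBP beta, which acts in macrophage activation and in many other cells, and gave signals of 366 and 436 against 981 and 859 (log2 change -1.20, SE 0.18, limma adjusted p = 0.00360). Irf8, a partner of PU.1 needed for yolk sac macrophage development, was higher without overlap in both models, with signals of 231 and 244 against 178 and 168 in EC-Rbpj-KO and 94 and 106 against 85 and 53 in EC-N1ICD. Neither change passed (0.46 and 0.57 on the log2 scale, limma adjusted p = 0.348 and 0.408). Runx1, which is required for blood formation from endothelium, overlapped with its wild type in both models.

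Lysosomal genes were mostly bright in all groups. Laptm5, a lysosomal membrane protein gene of blood cells, rose in EC-Rbpj-KO, with signals of 721 and 530 against 307 and 206 (log2 change 1.30, SE 0.23, limma adjusted p = 0.00865), a call that ended without wild type replicate 2 of its set (1.01, adjusted p = 0.0950) and with the mean of all its probe sets (0.57, adjusted p = 0.142). Ctsh, the gene of cathepsin H, fell there, with signals of 4665 and 7175 against 8330 and 9823 (log2 change -0.64, SE 0.16, adjusted p = 0.0466), and with 1 array left out it passed only without EC-Rbpj-KO replicate 2, with -0.33 without EC-Rbpj-KO replicate 1 (adjusted p = 0.130), -0.76 and -0.53 without wild type replicates 1 and 2 (adjusted p = 0.0826 and 0.289) and adjusted p = 0.0647 to 0.0785 without an array of the EC-N1ICD set. Lyz1, a lysozyme gene, gave signals of 281 and 222 against 78 and 68, a log2 change of 1.78 that did not pass (adjusted p = 0.0818). The broadly expressed cathepsin genes Ctsb and Ctsl had changes of -0.00 and -0.12 in EC-Rbpj-KO, beside the 2.07 of Ctss. The median of the 12 tested genes of this list was -0.02 in EC-Rbpj-KO and -0.01 in EC-N1ICD.

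Among the genes of complement C1q and the phagocyte oxidase, Ncf4, which encodes the p40phox subunit, fell in EC-N1ICD with signals of 45 and 128 against 315 and 346 (log2 change -2.12, limma adjusted p = 0.0337). The call ended without EC-N1ICD replicate 1 (-1.37, limma adjusted p = 0.183) and without wild type replicate 1 (-2.19, adjusted p = 0.147) or 2 (-2.05, adjusted p = 0.197), and with embryo sex as a covariate (-2.28, adjusted p = 0.243). In EC-Rbpj-KO its signals were 162 and 145 against 118 and 96, and the change did not pass (adjusted p = 0.481). C1qb, a chain of complement C1q made largely by macrophages, gave signals of 119 and 148 against 16 and 51 in EC-N1ICD, a log2 change of 2.22 that did not pass (adjusted p = 0.0531), and of 117 and 97 against 88 and 80 in EC-Rbpj-KO. No tested gene of the scavenger receptor list (7) or of the microglia-associated list (4) passed in either model. Mrc1, the mannose receptor gene, gave signals of 867 and 321 against 333 and 305 in EC-Rbpj-KO, where 1 array alone stood out. Of the microglial genes P2ry12, P2ry13 and Gpr34, all signals lay below the array median.

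**Figure D3:**
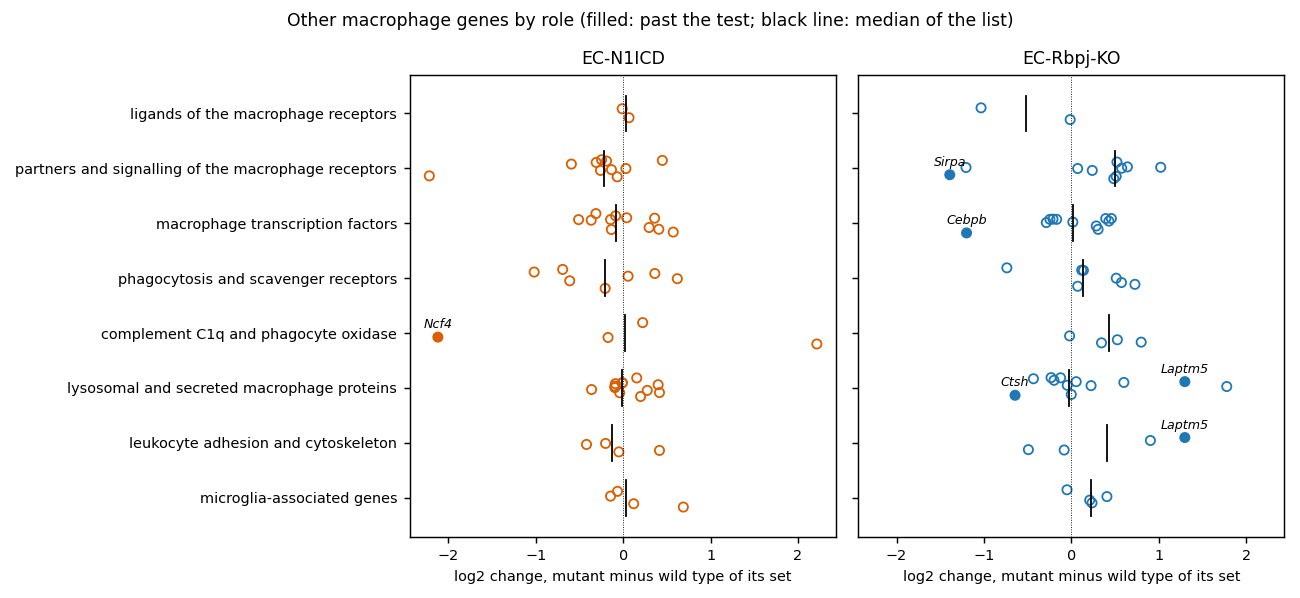
Log2 change of the 53 other macrophage genes tested, by list (rows), in EC-N1ICD (left) and EC-Rbpj-KO (right). Filled points passed the limma test and are named, open points did not, and black lines are the median of each list. In EC-Rbpj-KO Laptm5 (1.30), which is in a pair of lists, rose and Sirpa (-1.39), Cebpb (-1.20) and Ctsh (-0.64) fell, and in EC-N1ICD Ncf4 (-2.12) fell.

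The genes with the pattern nearest to the mean of the 10 over the 8 arrays were Lims2, Plat, Sap30, Krt19 and Gstm3. Likeness was the mean absolute distance on the log2 scale after each array had been set relative to the wild type mean of its set. These distances were 0.11 for Lims2 and Plat and 0.12 for Sap30, Krt19 and Gstm3. The nearest of the 10 genes was Csf1r at 0.18 and the farthest Fcgr3 at 1.36, and 37 tested genes that are not among the 10 lay nearer than Csf1r. Krt19, a keratin gene of epithelia, gave signals of 1491 and 1570 on EC-Rbpj-KO arrays against 995 and 702, and of 1407 and 1253 in EC-N1ICD against 817 and 744. Plat, the gene of tissue plasminogen activator, gave signals of 543 and 424 against 249 and 221, and of 375 and 275 against 222 and 182. None of the 5 is on a macrophage list.

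Markers of the other cells that a yolk sac dissection may hold were summed over each list. Of the erythro-myeloid progenitor list, 3 genes (Csf1r, Ptprc and Spi1) are among the 10, and the other 9 summed to 1492 and 1263 on EC-Rbpj-KO arrays against 1238 and 1242, and to 1778 and 2002 in EC-N1ICD against 2150 and 1818. None of the 9 passed in either model.

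The endothelial list summed to 3482 and 2463 on EC-Rbpj-KO arrays against 1936 and 1895, and to 3590 and 3428 in EC-N1ICD against 4223 and 2961. Its members went both ways in EC-Rbpj-KO. Of the 9 tested, 2 rose and none fell, Cldn5 by 1.62 and Icam2 by 1.04 on the log2 scale (limma adjusted p = 0.00369 and 0.0397), whereas Tek, the receptor gene whose promoter drives the Cre, was lower without overlap (187 and 181 against 276 and 336, log2 change -0.73, adjusted p = 0.103) and Kdr and Flt1 overlapped (0.02 and -0.05). Without Cldn5 the sum was 2387 and 1748 against 1634 and 1622. Cldn5 passed with each array left out in turn, whereas Icam2 passed only without EC-Rbpj-KO replicate 2, with 0.66 to 1.18 without one of the other arrays (limma adjusted p = 0.0503 to 0.249). The part of endothelial cells in the changes of the macrophage genes was not tested.

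Cells that also carry Fcgr3 were looked at beside its fall. The mast cell list summed to 144 and 240 on EC-Rbpj-KO arrays against 339 and 318, and to 244 and 226 in EC-N1ICD against 278 and 310. That difference lay in Hdc, the histamine-forming enzyme gene and the single member bright enough to test, which fell in EC-Rbpj-KO (17 and 63 against 195 and 178, log2 change -2.51, limma adjusted p = 0.0146). Without Hdc the list summed to 127 and 177 against 144 and 140, and Cpa3, Cma1, Mcpt4, Tpsab1 and Ms4a2, which define these cells, were below the array median on all arrays. The call of Hdc ended without wild type replicate 1 (-2.44, limma adjusted p = 0.0766) or 2 (-2.57, adjusted p = 0.0755).

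The monocyte list, with 4 of 7 genes matched, summed to 299 and 422 on EC-Rbpj-KO arrays against 564 and 611, and to 1611 and 1739 in EC-N1ICD against 1217 and 1270. Most of that difference lay in Vcan, the gene of the matrix proteoglycan versican, which cells other than monocytes also make. Vcan fell in EC-Rbpj-KO (224 and 306 against 466 and 523, log2 change -0.92, limma adjusted p = 0.0158), a call that ended with the mean of all its probe sets (-0.15, adjusted p = 0.644) and without wild type replicate 1 (-1.0, adjusted p = 0.0658) or 2 (-0.83, adjusted p = 0.154). The call of Vcan also ended with embryo sex in the fit and with the arrays of the set alone. Without Vcan the list summed to 75 and 116 against 98 and 88, and Ccr2, the chemokine receptor gene of monocytes, overlapped (49 and 86 against 72 and 62).

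The neutrophil list summed to 682 and 823 on EC-Rbpj-KO arrays against 564 and 479, and to 420 and 407 in EC-N1ICD against 563 and 555. Its Mpo, the myeloperoxidase gene of early granulocytes and progenitors, fell in EC-N1ICD (35 and 38 against 160 and 107, log2 change -1.84, limma adjusted p = 0.0156). It was 1.04 higher in EC-Rbpj-KO without passing (347 and 378 against 218 and 143, adjusted p = 0.0535). Mpo carried most of the difference of the sum in both models. The difference of its changes between the models was 2.88 (limma adjusted p = 0.0185), which was not run under the alternatives. The fall of Mpo did not pass without EC-N1ICD replicate 1 (-1.78, limma adjusted p = 0.169) or wild type replicate 1 (-1.55, adjusted p = 0.116), or with embryo sex as a covariate (-1.72, adjusted p = 0.224). The part of mast cells, monocytes and neutrophils in the changes of Fcgr3 was not tested.

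The megakaryocyte list summed to 1200 and 1784 in EC-N1ICD against 2784 and 3774, with the platelet gene Pf4 lower (log2 change -2.0, limma adjusted p = 0.0216), and to 2265 and 1540 on EC-Rbpj-KO arrays against 2152 and 1852. Pf4 did not pass without EC-N1ICD replicate 1 (-1.43, limma adjusted p = 0.183) or wild type replicate 1 (-2.37, adjusted p = 0.0820) or 2 (-1.64, adjusted p = 0.186), or with embryo sex as a covariate (-2.49, adjusted p = 0.141). The erythroid list summed to 48544 and 82697 in EC-N1ICD against 95544 and 101375, and to 54485 and 66779 on EC-Rbpj-KO arrays against 71083 and 69055. Tfrc, the transferrin receptor gene, fell in both models, with log2 changes of -1.97 in EC-Rbpj-KO (535 and 807 against 2691 and 2470, limma adjusted p = 0.00382) and -1.64 in EC-N1ICD (1121 and 2333 against 4425 and 5779, adjusted p = 0.0337). With the mean of all its probe sets neither passed (-1.23 and -1.28, limma adjusted p = 0.0576 and 0.131). The fall in EC-N1ICD also did not pass with embryo sex as a covariate (-1.05, limma adjusted p = 0.391), without EC-N1ICD replicate 1 (-1.12, adjusted p = 0.217) or without wild type replicate 1 (-1.84, adjusted p = 0.130) or 2 (-1.45, adjusted p = 0.223).

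The mesoderm and mural cell list summed to 37520 and 36362 in EC-N1ICD against 28349 and 29981, and to 26903 and 27536 on EC-Rbpj-KO arrays against 25529 and 24661, higher without overlap in both. Most of the EC-N1ICD difference lay in Acta2, which did not pass (14640 and 13687 against 7480 and 8684, log2 change 0.81, limma adjusted p = 0.0651). In EC-Rbpj-KO Acta2 overlapped (2112 and 3314 against 2316 and 2411). In EC-N1ICD the smooth muscle genes Tagln (log2 change 1.56, limma adjusted p = 0.00275) and Myl9 (0.86, adjusted p = 0.0481) rose. Tagln did not pass without EC-N1ICD replicate 1 (1.49, limma adjusted p = 0.0676) or with embryo sex as a covariate (1.29, adjusted p = 0.123), and Myl9 passed with 1 array left out only without either EC-Rbpj-KO array, with 0.71 to 1.01 without one of the others (adjusted p = 0.0810 to 0.317). In EC-Rbpj-KO Pdgfra of this list (-0.83, limma adjusted p = 0.0436) and Cubn of the visceral endoderm list (-0.34, adjusted p = 0.0324) fell, and both passed with 1 array left out only without EC-Rbpj-KO replicate 2. Without one of the others Pdgfra was -0.96 to -0.58 (adjusted p = 0.0576 to 0.299) and Cubn -0.38 to -0.23 (adjusted p = 0.0515 to 0.162).

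None of the 8 lymphocyte genes matched was bright enough to test. The visceral endoderm list summed to 163680 to 188062 over the 8 arrays. The decidua list summed to 3691 and 2467 on EC-Rbpj-KO arrays against 3156 and 2951 and to 3311 and 3041 in EC-N1ICD against 3104 and 2582. Most of these sums lay in Hsd11b2 and Cryab. Prl8a2 of that list was uneven, with 135 and 31 on EC-Rbpj-KO arrays against 281 and 41, and 235 and 462 in EC-N1ICD against 143 and 333. The trophoblast list, with 2 of 6 genes matched and both below the array median throughout, summed to 25 to 50. The part of decidua and trophoblast in the changes was not tested. The part of the red cell, megakaryocyte and mural cell sums in the changes of the macrophage genes was not tested.

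**Figure D4:**
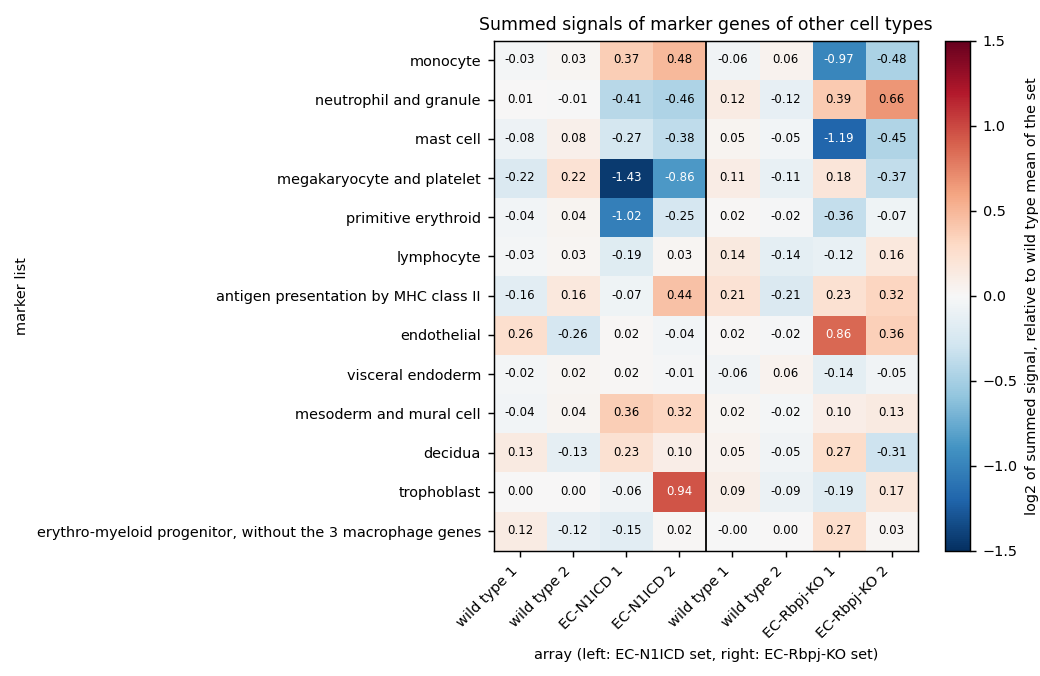
Summed signals of marker lists of other cell types (rows) on each array (columns), as log2 relative to the wild type mean of the set, with red higher and blue lower. The endothelial sum was higher and the monocyte and mast cell sums, carried by Vcan and Hdc, were lower on both EC-Rbpj-KO arrays, while the megakaryocyte and erythroid sums were lowest on EC-N1ICD replicate 1.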

How the data were processed

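Total RNA of yolk sacs at embryonic day 9.5 was hybridised to 8 single-channel arrays. The deposited values are linear signal intensities, which the authors made with MAS5 (submitters' processing notes). The scaling target is not given in the sources used here. Array medians were 38 to 51, and their number, 2 a group, limits the precision. Of 45101 probe sets, 34958 map to 1 gene in GEO's platform annotation, 932 to several and 9211 to none. The labels name a smaller array design than that annotation.

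Of each gene the brightest probe set was kept, and the 10913 genes with a mean above the 40th percentile (68 or more) were tested on log2 signals with limma 3.58.1 in R 4.3.3, using 4 groups, all 8 arrays, eBayes with trend and Benjamini-Hochberg adjustment over all genes at 0.05. With 2 against 2, an exact permutation test cannot go below 0.333. On simulated data, 43.3% of 67 genes changed 2-fold were recovered in EC-Rbpj-KO and 49.3% in EC-N1ICD, with 10713 genes unchanged. Both simulations used the same gene means and pooled spread, so the gap between these shares says nothing about the models.

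Named were the 10 genes, up to 3 called genes of each macrophage list and comparison, the 5 genes nearest in pattern, Rbpj, Xist and defining markers. Further listed genes and markers were named after their values were seen. The 10 genes and all lists were chosen with earlier results of these data known. Replicate numbers follow accession order. Promoters are RefSeq's (GRCm38.p6), and 6 of the 10 genes had an entry. Alternatives covered probe set, filter, added constant, scaling, arrays in the fit, moderation, the methods' t-test, embryo sex and leaving out each array.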

Additional observations from a re-analysis of the deposited data

How the results depend on the processing

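No paired analysis was possible because no replicate numbers pair mutants with wild types: the first number in the titles, of unstated meaning, is shared by mutant replicate 2 and both wild types of a set. In EC-Rbpj-KO, 6 of 8 macrophage genes passed, against 2 with the filter at the 60th percentile (2 genes left to test) or sex in the fit, 3 with the set alone, without trend or by the methods' t-test unadjusted, 0 by that t-test after Benjamini-Hochberg adjustment, and 2 to 5 with 1 array left out (2 without EC-Rbpj-KO replicate 1 or its wild type replicate 2, 3 without wild type replicate 1). In EC-N1ICD, 1 of 10 passed, against 2 with the mean of all probe sets or the unadjusted t-test, 0 at the 60th percentile (2 genes left to test), by the adjusted t-test or with sex in the fit, and 0 to 2 with 1 array left out (0 without any array of its set, 2 without either EC-Rbpj-KO array). Of the 8 in EC-Rbpj-KO, 4 passed with no filter on low signals and 5 with quantile normalization. None of these 8 passed for the difference between the models in any fit. Of the other macrophage genes in EC-Rbpj-KO, 4 passed, against 2 with the mean of all probe sets, 7 with no filter (85 tested), 0 by the adjusted t-test, and 1 to 8 with 1 array left out (8 without EC-Rbpj-KO replicate 2, 2 and 1 without wild type replicates 1 and 2). In EC-N1ICD 1 passed, against 2 with the mean of all probe sets, 16 added, quantile normalization or sex in the fit, 3 with median centring, 0 at the 60th percentile, without trend or by the adjusted t-test, 7 by the unadjusted t-test, and 0 to 2 with 1 array left out (0 without EC-N1ICD or wild type replicate 1, 2 without EC-N1ICD replicate 2 or either EC-Rbpj-KO array). The cause was not tested, beyond fewer genes or arrays.

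Signs turned only for small changes. In EC-N1ICD, Cd68 was 0.31 with sex in the fit and Spi1 was -0.821 to 0.121 with 1 array left out, above 0 without wild type replicate 1 alone. For the difference between models, Adgre1 was 0.0238 with 16 added and -0.478 to 0.377 with 1 array left out, above 0 without any replicate 1, Ctss was -0.438 to 1.21, below 0 without EC-N1ICD wild type replicate 2, and Tyrobp was -0.101 with quantile normalization and -0.0963 to 0.379 with 1 array left out, below 0 without EC-N1ICD replicate 2 or EC-Rbpj-KO replicate 1. In EC-Rbpj-KO the fit with sex gives the same changes as leaving out replicate 1. Weak signals, such as Ly86 in wild type yolk sac, bound folds poorly.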

Other observations

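Of the 85 other macrophage genes with a probe set, 32 were too dim for the test, and 15 of all 85 lay below the array median on every array. Of the 32, 12 were higher and 2 lower without overlap in EC-Rbpj-KO, and 12 were higher and 1 lower in EC-N1ICD. The higher ones were 37.5% of the dim genes in either model, beside 21.3% and 21.5% of all 7281 genes below the filter. The share that was lower among those 7281 was not counted, so nothing is read from the lower counts. With no filter on low signals, 466 of all 18194 genes and 7 of the 85 passed the limma test in EC-Rbpj-KO, and 4 of these 7 were among the dim genes.

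Cd52, a short glycoprotein gene of leukocytes, gave signals of 125 and 94 in the EC-Rbpj-KO yolk sacs and 32 and 17 in its wild type (log2 change 2.22, limma adjusted p = 0.00834 with no filter). Clec7a, which encodes the beta-glucan receptor dectin-1, gave signals of 123 and 147 against 58 and 22 (1.91, adjusted p = 0.0334). Cybb, the gene of the catalytic subunit of the phagocyte oxidase, gave signals of 34 and 38 against 15 and 15 (log2 change 1.26, adjusted p = 0.0141), all below the array median. Evi2a gave signals of 85 and 48 against 24 and 16 (1.70, adjusted p = 0.0406). In EC-N1ICD the same genes gave signals of 46 and 34 against 38 and 26 (Cd52), 67 and 49 against 25 and 33 (Clec7a), 28 and 22 against 14 and 13 (Cybb), and 66 and 39 against 17 and 27 (Evi2a). Clec7a, Cybb and Evi2a were thus higher without overlap in both models, and Cd52 overlapped in EC-N1ICD.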
